A study of Mus musculus with 33 samples.

Results

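The 39 Hox genes of the mouse were followed across 11 groups of embryonic stem cells (ESCs) that lacked one, several or none of the HP1 heterochromatin proteins, or the H3K9 methyltransferase SETDB1. The members were all genes in the deposited tables whose symbol is Hoxa, Hoxb, Hoxc or Hoxd followed by a number, which gave 39 of the 55487 genes. By cluster these were 11 Hoxa, 10 Hoxb, 9 Hoxc and 9 Hoxd genes. The rule used names only and no measured value, but it was chosen with earlier results of these data known.

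Hox genes encode homeodomain transcription factors that give cells their position along the head-to-tail axis and along the limbs. They lie in 4 clusters in which gene order follows the order of expression: low-numbered genes, at the 3′ end of a cluster, are used early and towards the head, and high-numbered genes, at the 5′ end, late and towards the tail. Genes of the same number in different clusters are paralogs. In ESCs the clusters are kept nearly silent, and Polycomb complexes, which write H3K27 methylation, are the best-known repressors there. HP1α, HP1β and HP1γ, encoded by Cbx5, Cbx1 and Cbx3, instead read H3K9 methylation, one of whose writers is SETDB1. On GRCm38 with the GENCODE M21 annotation, the Hoxa cluster occupies chr6:52155590-52260880, Hoxb chr11:96194316-96368256, Hoxc chr15:102921103-103036852 and Hoxd chr2:74668310-74765142.

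All cells were mouse ESCs of a C57BL/6 background, grown on fibroblast feeders, and their RNA was sequenced in 3 libraries per group, 33 in all. The groups were a pair of wild-type sets, here called the first (titled NK) and the second (titled WT) wild-type set, and constitutive knockouts of Hp1α, Hp1β or Hp1γ alone (Hp1α Δ/Δ, Hp1β Δ/Δ, Hp1γ Δ/Δ) and of each pair (Hp1α/β Δ/Δ, Hp1β/γ Δ/Δ and also Hp1α/γ Δ/Δ). The triple knockout, Hp1α/β/γ Δ/Δ, was made by transfecting Cre into cells that already lacked Hp1α and Hp1β and carried a floxed Hp1γ, and Setdb1 Δ/Δ by deleting floxed exons with Cre in Setdb1 F/F cells, which served as their own control. The single and double mutants are established CRISPR lines and the triple and Setdb1 knockouts were induced with Cre, so the number of HP1 genes lost and the kind of deletion cannot be told apart. The single mutants, Hp1α/β Δ/Δ and Hp1α/β/γ Δ/Δ were compared with the first wild-type set, and the other double mutants with the second, as the deposited tables pair them. The study's methods name another control for the triple knockout, Hp1α/β Δ/Δ cells with floxed Hp1γ that received a vector without Cre, which is not analysed here; the differences of the triple knockout from wild type therefore include the loss of Hp1α and Hp1β and the Cre treatment. The methods call the libraries of a group biological replicates, from independent experiments for the triple knockout. The labels do not say whether a group came from 1 line or several, so p-values measure the spread between cultures of what may be a single line.

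The estimated counts of a library summed to between 17330936 and 25743149. The targeted transcripts were lower in the mutants: Cbx5 fell from 486 ± 6.36 CPM (counts scaled to library size; SD, n = 3 here and throughout) in the first wild-type set to 179 ± 1.93 in Hp1α Δ/Δ, Cbx1 from 441 ± 9.17 to 104 ± 6.26 in Hp1β Δ/Δ, Cbx3 from 178 ± 6.93 to 76.1 ± 1.10 in Hp1γ Δ/Δ, and Setdb1 from 133 ± 2.28 in Setdb1 F/F to 69.3 ± 2.07 in Setdb1 Δ/Δ. In Hp1α/β/γ Δ/Δ Cbx5, Cbx1 and Cbx3 stood at 271 ± 4.88, 44.4 ± 2.86 and 62.1 ± 2.52 CPM, and Setdb1 at 137 ± 2.47 against 201 ± 6.84. In Setdb1 Δ/Δ the HP1 transcripts were also lower than in Setdb1 F/F, Cbx1 at 113 ± 1.47 against 173 ± 3.48 CPM and Cbx3 at 74.0 ± 1.86 against 127 ± 2.86. A gene was called up-regulated or down-regulated where edgeR's quasi-likelihood test gave a Benjamini-Hochberg adjusted p under 0.05 and the log2 fold change (log2FC) exceeded 1 in size. In the triple knockout 25.1% of 17501 tested genes were up-regulated and 17.1% down-regulated, so a call by itself was common there. The RNA is from bulk cultures, in which more cells expressing a Hox gene and more Hox RNA per cell cannot be told apart.

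Promoter sequence was at hand for 22 of the 39 genes (24 start sites, RefSeq, GRCm38.p6, from 250 bases before to 50 after the start). The 5 shown belong to the genes on which the comparisons below turn: Hoxa7 was the highest Hox transcript of the triple knockout, Hoxa6 lies beside it and had no count there, Hoxd10 had one of the largest differences from wild type, and Hoxb8 and Hoxd1 were higher after Setdb1 loss than after HP1 loss. Capitals mark CpG dinucleotides, the bases that DNA methylation uses in mammals; each sequence is written 5′ to 3′ on the strand of its gene.
Hoxa7 (chr6:52218524-52218823, minus strand): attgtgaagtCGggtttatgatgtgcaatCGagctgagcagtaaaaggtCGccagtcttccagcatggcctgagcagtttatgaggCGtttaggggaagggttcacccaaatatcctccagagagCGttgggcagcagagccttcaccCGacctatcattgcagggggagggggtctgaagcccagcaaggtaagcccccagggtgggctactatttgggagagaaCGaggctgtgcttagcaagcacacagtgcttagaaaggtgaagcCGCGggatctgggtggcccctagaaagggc
Hoxa6 (chr6:52208623-52208922, minus strand): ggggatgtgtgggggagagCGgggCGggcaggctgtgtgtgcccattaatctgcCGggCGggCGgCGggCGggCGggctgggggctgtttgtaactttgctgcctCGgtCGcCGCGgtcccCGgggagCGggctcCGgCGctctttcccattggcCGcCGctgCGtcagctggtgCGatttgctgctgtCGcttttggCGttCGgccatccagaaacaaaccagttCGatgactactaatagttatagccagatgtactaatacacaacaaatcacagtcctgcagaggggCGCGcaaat
Hoxd10 (chr2:74691641-74691940, plus strand): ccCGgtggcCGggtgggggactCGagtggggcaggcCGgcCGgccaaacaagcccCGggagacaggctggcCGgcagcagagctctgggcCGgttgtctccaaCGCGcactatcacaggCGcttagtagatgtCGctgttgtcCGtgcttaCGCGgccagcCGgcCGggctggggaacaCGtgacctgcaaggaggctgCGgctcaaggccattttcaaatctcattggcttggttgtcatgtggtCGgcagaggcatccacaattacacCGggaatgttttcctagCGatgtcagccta
Hoxb8 (chr11:96281655-96281954, plus strand): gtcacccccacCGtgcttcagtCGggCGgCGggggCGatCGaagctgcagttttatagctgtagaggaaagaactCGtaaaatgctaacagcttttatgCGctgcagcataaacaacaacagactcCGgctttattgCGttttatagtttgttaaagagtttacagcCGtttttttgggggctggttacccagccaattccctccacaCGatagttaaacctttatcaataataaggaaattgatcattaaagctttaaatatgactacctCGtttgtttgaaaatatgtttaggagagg
Hoxd1 (chr2:74762730-74763029, plus strand): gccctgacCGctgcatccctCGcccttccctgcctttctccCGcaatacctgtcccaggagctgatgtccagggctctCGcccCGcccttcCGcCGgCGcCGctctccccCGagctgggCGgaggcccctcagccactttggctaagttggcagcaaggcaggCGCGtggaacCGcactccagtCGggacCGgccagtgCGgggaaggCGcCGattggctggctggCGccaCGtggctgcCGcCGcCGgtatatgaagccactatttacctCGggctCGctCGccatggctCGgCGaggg

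The Hoxa7 window held 9 CpGs, an observed-to-expected ratio of 0.405, and the Hoxa6 window 26, a ratio of 0.923. The Hoxd10 window held 22, Hoxb8 13 and Hoxd1 29. Over the 24 Hox windows the median CpG ratio was 0.626, with a range of 0.257 to 1.02, against a median of 0.384 over all 32851 promoters of the table; median GC content was 57.7% against 52.7%. The E-box CACGTG was found in 5 of the 24 Hox windows and in 7.15% of all windows. All 5 were in the Hoxd cluster, at Hoxd1, Hoxd4, Hoxd10, Hoxd11 and Hoxd13, and the motif began 73 bases before the start of Hoxd10 and 21 bases before that of Hoxd1. The E2F-type motif GCGGGAA, or its reverse complement TTCCCGC, was in 0 of the 24 windows and in 4.6% of all, and the CDX-type motif TTTATGG, or CCATAAA, only in that of Hoxd4 and in 2.75% of all. A match of letters is a description of the window and not a bound site.

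In wild-type ESCs the Hox genes were at or near the limit of detection. Over the 3 libraries of the first wild-type set the 39 genes together held 308 counts, 10 of them had none, and in no wild-type group did any member reach a mean of 1 CPM. The highest per transcript length in the first set was Hoxd4 at 0.553 TPM, the authors' measure scaled to transcript length and library size, and in the second Hoxc13 at 0.323 TPM. The counts of Hoxd13, the most 5′ Hoxd gene, were 11, 15 and 17 in the first wild-type set and 7, 10 and 5 in the second. Hoxd4, a central member of its cluster, had 13, 13 and 7 counts in the first set and 1, 4 and 1 in the second. The libraries of the wild-type sets therefore did not overlap for Hoxd4. In Setdb1 F/F, Hoxc13, with 23, 34 and 9 counts, reached a mean of 1 CPM. Hox counts summed to 218 in the second wild-type set and to 232 in Setdb1 F/F.

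**Figure D1:**
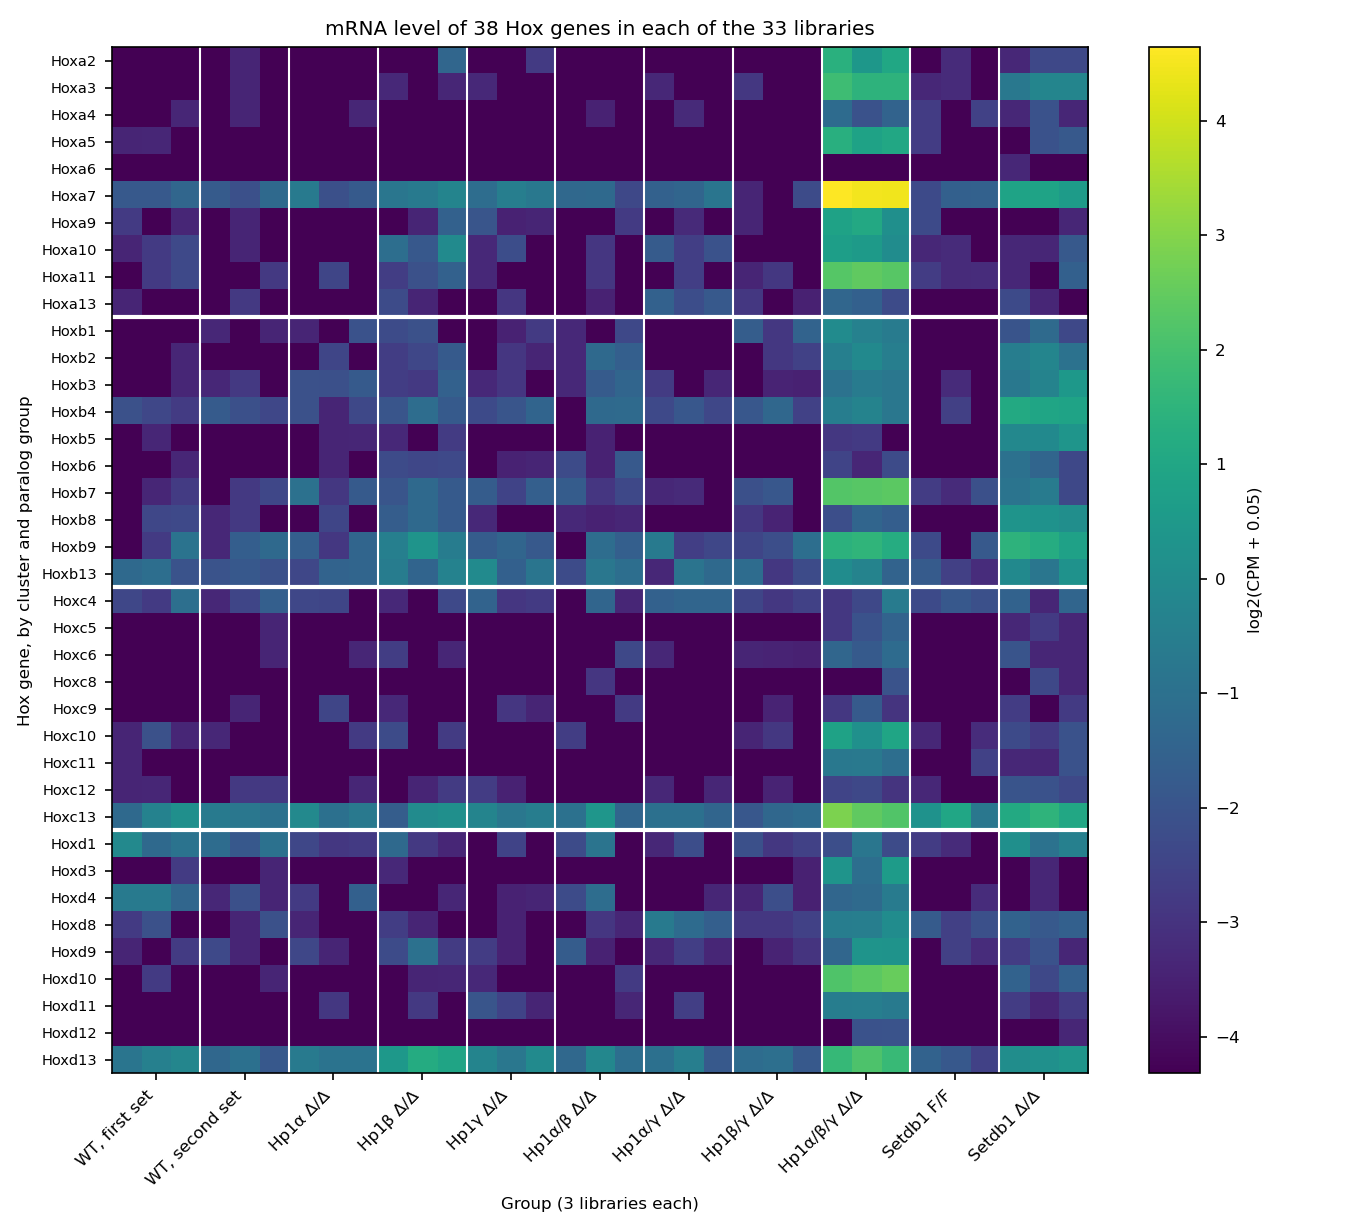
Level of 38 of the 39 Hox genes (rows, by cluster and gene number) in each of the 33 libraries (columns, 3 per group), as log2(CPM + 0.05); colour runs from dark (no counts) to yellow. The 3 Hp1α/β/γ Δ/Δ columns are bright over most of the rows, the 3 Setdb1 Δ/Δ columns mainly over the Hoxb rows, and the row of Hoxa6 is dark but for 1 count in 1 Setdb1 Δ/Δ library.

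In cells without all 3 HP1 genes, Hox genes of every cluster were up-regulated. Summed over the 39 genes, the level was 75.6 ± 2.92 CPM in Hp1α/β/γ Δ/Δ, with 78.8, 75.2 and 73.0 CPM in the 3 libraries, against 4.84 ± 0.673 CPM in the first wild-type set. By cluster, Hoxa genes stood at 42.4 ± 3.27 against 0.910 ± 0.116 CPM, Hoxd genes at 12.95 ± 1.70 against 1.97 ± 0.145, Hoxb genes at 11.3 ± 0.760 against 0.866 ± 0.304 and Hoxc genes at 8.97 ± 1.18 against 1.09 ± 0.452. These sums are given without a test. Of the 39 members, 22 were up-regulated and 0 down-regulated, beside the 25.1% of all tested genes that were up-regulated. Because 15 members were too low in most libraries for the count filter, and a gene silent in wild type passes it only through the mutant, the 22 calls out of 24 tested are not a measure of how many Hox genes responded.

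Values that need no count filter covered all 39 members. Every Hp1α/β/γ Δ/Δ library lay above every library of the first wild-type set for 30 of the 39 Hox genes, against 30.6% of the 30545 genes with a count, and none lay below in all. Of 24 Hox genes with at most 3 counts in the wild-type libraries together, 13 reached 30 or more in the triple knockout, whereas 6.53% of 5770 such protein-coding genes did. With no filter the test called 29 Hox genes up-regulated, beside 18.8% of all genes with a count. The median log2 ratio was 3.76 over the 38 members with a defined fold, setting the 9 whose wild-type libraries held no count at the bound described below. That is a median of count ratios and not of fitted changes. In the unfiltered fit the median log2FC was 4.05 over 38 Hox genes and 0.41 over all genes. Values there for genes without wild-type counts depend on the prior count of the fit. Over all genes of the filtered fit it was 0.04.

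Hoxa7, a central gene of the Hoxa cluster with a role in axial patterning, accounted for 54.3% of the summed Hoxa level of the triple knockout. Its counts were 582, 471 and 559 in Hp1α/β/γ Δ/Δ and 5, 5 and 7 in the first wild-type set (23.0 ± 1.75 against 0.267 CPM; log2FC 6.44 ± 0.18 SE, adjusted p = 8.59e-17, edgeR). The 2 groups were far apart, with no overlap. Hoxa11, a gene of the limb and the reproductive tract, had 113, 113 and 126 counts in the triple knockout against 0, 2 and 3 (log2FC 5.94 ± 0.41, adjusted p = 9.47e-11).

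For genes with no wild-type count the ratio has only a lower bound, computed against a floor of 3 counts over the group. Hoxa3, needed for pharyngeal organs, had 84, 58 and 71 counts in the triple knockout and 0 in each wild-type library, at least 64.6-fold higher. Hoxa2, a hindbrain and second-arch gene, had 59, 27 and 51 against 0, at least 41.5-fold higher. Where the wild-type libraries held 1 to 3 counts, the ratio carries an exact interval that covers counting error only. Hoxa5, with 57, 37 and 52 counts against 1, 1 and 0, was 66.4-fold higher (95% interval 18.1 to 553), and Hoxa9, with 41, 44 and 27 against 2, 0 and 1, was 34.0-fold higher (11.3 to 167). Hoxa10 rose from 1, 2 and 3 to 37, 30 and 25 counts (log2FC 3.77 ± 0.54, adjusted p = 3.08e-06). Hoxa4 and Hoxa13 did not pass the filter but were called without it, from 1 wild-type count each to totals of 21 and 18. Hoxa6 had no count in any HP1 mutant or wild-type library. The annotation of Hoxa3 spans Hoxa4, Hoxa5 and Hoxa6 on the same strand and Hoxaas3 lies opposite Hoxa3 to Hoxa7, so the division of reads among these genes is uncertain.

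In the Hoxb cluster, Hoxb7 stood out. It had 109, 103 and 133 counts in Hp1α/β/γ Δ/Δ against 0, 1 and 2 in wild type, 105-fold higher (35.5 to 510). Its neighbours on either side, Hoxb6 with 3, 1 and 4 counts and Hoxb8 with 4, 7 and 7, were not called with or without the filter, and Hoxb5 had 2, 2 and 0. Further 5′, Hoxb9 rose from 0, 2 and 10 counts to 62, 61 and 59 (log2FC 3.79 ± 0.53, adjusted p = 2.48e-06). Towards the 3′ end Hoxb1, the hindbrain gene of the fourth rhombomere, had 22, 15 and 16 counts against 0, at least 16.1-fold higher, Hoxb2 52 counts in total against 1, and Hoxb3 38 against 1. Hoxb4, a gene of blood progenitors and the hindbrain, rose less, from 4, 3 and 2 to 15, 16 and 14 counts (log2FC 2.19 ± 0.54, adjusted p = 0.00107). Hoxb13 had 23, 16 and 8 counts against 8, 9 and 4 and did not pass the filter.

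Hoxc genes were raised mainly at the 5′ end. Hoxc13, a gene of hair and nail formation, rose from 8, 16 and 22 counts to 169, 114 and 119 (log2FC 3.02 ± 0.30, adjusted p = 1.77e-08). Hoxc10, a gene of lumbar and hindlimb position, had 41, 23 and 49 counts against 1, 4 and 1 (log2FC 4.04 ± 0.55, adjusted p = 1.56e-06), and Hoxc11 13, 12 and 11 against 1, 0 and 0, 32.7-fold higher (5.51 to 1328). Hoxc5, Hoxc6 and Hoxc9 were called only in the unfiltered fit, at totals of 14, 23 and 9 counts against 0. Hoxc4 had 2, 3 and 16 counts, Hoxc8 0, 0 and 5, and Hoxc12 3, 3 and 2, none of them called. Hoxc5 as annotated spans Hoxc6, Hoxc8, Hoxc9 and Hoxc10 on the same strand, so the division of reads among these genes is uncertain.

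Hoxd10, a limb and motor neuron gene, had one of the largest ratios of any member. Its counts were 105, 109 and 151 in the triple knockout against 0, 2 and 0, 166-fold higher (45.6 to 1375). Hoxd13, the digit gene at the 5′ end, rose from 11, 15 and 17 counts to 74, 92 and 84 (log2FC 2.44 ± 0.29, adjusted p = 3.37e-07), Hoxd11 from 0 to 15, 14 and 15 counts, at least 13.3-fold higher, and Hoxd8 from 6 to 54 counts in total (log2FC 2.99 ± 0.64, adjusted p = 3.01e-04). Hoxd3 had 28, 9 and 38 counts against 0, 0 and 2, 34.1-fold higher (9.12 to 287). Hoxd3 and Hoxd4 overlap on the same strand, so reads may have been divided between them. Hoxd1 and Hoxd4 were tested and not called: Hoxd1 had 4, 11 and 4 counts against 19, 8 and 10 (log2FC -1.03 ± 0.56, adjusted p = 0.0994), and Hoxd4 8, 8 and 16 against 13, 13 and 7 (log2FC -0.15 ± 0.47, adjusted p = 0.769). Hoxd9 and Hoxd12 were called only without the filter, at totals of 63 and 9 counts against 3 and 0.

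**Figure D2:**
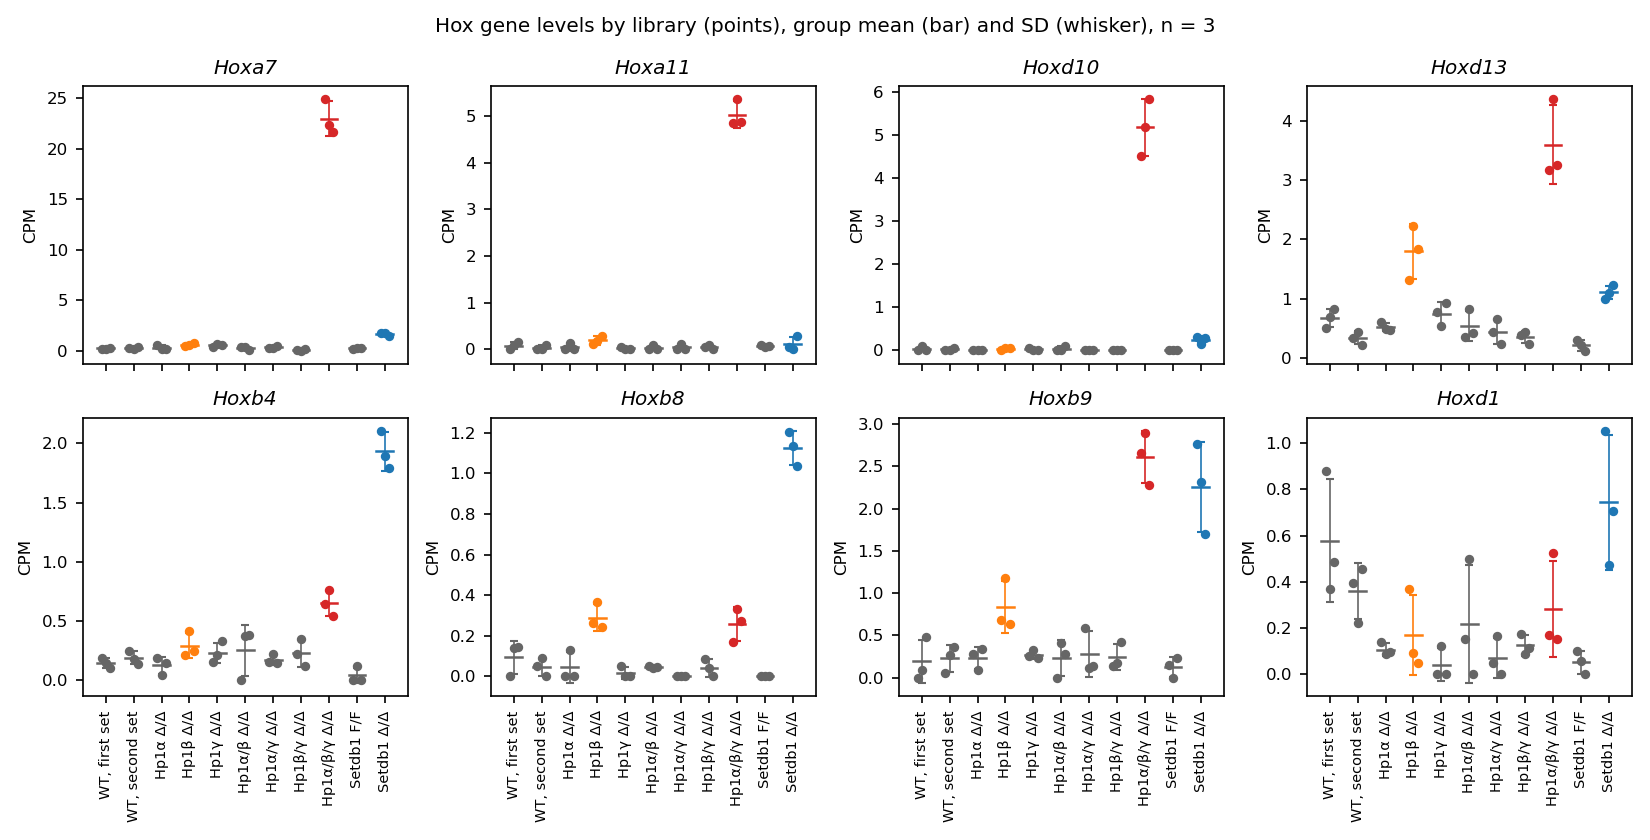
CPM of 8 Hox genes in each library (points), with the group mean (horizontal bar) and SD (whisker) of 3 libraries; the vertical scale differs between panels. Hp1α/β/γ Δ/Δ (red) stands above all other groups for Hoxa7, Hoxa11, Hoxd10 and Hoxd13, Setdb1 Δ/Δ (blue) for Hoxb4 and Hoxb8, and both are high for Hoxb9; Hp1β Δ/Δ (orange) lies between wild type and the triple knockout for Hoxd13, and the groups overlap for Hoxd1.

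Setting Hp1α/β/γ Δ/Δ against Hp1α/β Δ/Δ places cells without any HP1 beside cells that kept HP1γ. Hox mRNA in the double mutant was at 4.64 ± 1.57 CPM, with 3.35, 6.39 and 4.18 CPM in its libraries, a range that spans the 4.26 to 5.58 CPM of the first wild-type set. Against this background 21 Hox genes were up-regulated in the triple knockout and 0 down-regulated, beside 25.4% of 17425 tested genes up-regulated. Only 23 were tested, and members silent in the double mutant passed the filter through the triple knockout. These calls are likewise not a measure of how many Hox genes responded. For 29 of the 39 every triple-knockout library lay above every double-mutant library, beside 30.8% of genes with a count. Of 23 Hox genes with at most 3 counts in the double mutant 12 reached 30, beside 6.48% of such protein-coding genes. Both comparisons share the triple-knockout libraries. For Hoxa7 the double mutant had 7, 9 and 3 counts (log2FC 6.29 ± 0.19, adjusted p = 4.45e-14), for Hoxa11 0, 2 and 0, and for Hoxd10 0, 0 and 2. In the double mutant Hoxb2 had 1, 9 and 6 counts and Hoxb3 1, 6 and 7, where the wild-type libraries together held 1 count of each. The log2FC of the triple over the double mutant was 1.61 ± 0.53 for Hoxb2 (adjusted p = 0.0108) and 1.34 ± 0.55 for Hoxb3 (adjusted p = 0.0352), and that of Hoxb4, 1.32 ± 0.61, missed the threshold (adjusted p = 0.0572). The Hoxb3 call was lost without any one of the 3 triple-knockout libraries or the first or second double-mutant library (log2FC 0.90 to 1.46), and the Hoxb2 call without the first double-mutant library (log2FC 1.16).

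Loss of 1 or 2 HP1 proteins left the Hox sum between 2.74 ± 0.0366 CPM in Hp1β/γ Δ/Δ and 8.30 ± 1.25 CPM in Hp1β Δ/Δ. None of the Hox genes tested was called in Hp1α Δ/Δ (0 of 2 tested; 1.56% of all genes up-regulated and 3.31% down-regulated), Hp1γ Δ/Δ (0 of 2; 2.04% and 3.55%), Hp1α/β Δ/Δ (0 of 3; 2.96% and 5.19%), Hp1α/γ Δ/Δ (0 of 1; 6.75% and 16.3%) or Hp1β/γ Δ/Δ (0 of 1; 7.32% and 4.54%). At an unadjusted p under 0.05 none of these tested genes passed in the edgeR fits. The other members were too low for the filter in these groups, so a difference in them was mostly not detectable at this depth. DESeq2 fitted all members with a count, but its default filtering can leave low genes without an adjusted p, and such genes could not be called. It called 1 in Hp1α Δ/Δ (2.89% of all genes), 2 in Hp1γ Δ/Δ (3.46%) and 0 in the double mutants. There it called 4.62% of all genes for α with β, 13.7% for α with γ and 6.93% for β with γ. Of the Hox genes with at most 3 wild-type counts, 0 of 24 or 25 reached 30 counts in any of these groups or in Hp1β Δ/Δ. Among protein-coding genes with as few counts, 0.0867% did so in Hp1α Δ/Δ, 0.156% in Hp1β Δ/Δ, 0.104% in Hp1γ Δ/Δ, 0.277% in Hp1α/β Δ/Δ, 0.227% in Hp1α/γ Δ/Δ and 2.68% in Hp1β/γ Δ/Δ.

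Hp1β Δ/Δ was the only single or double mutant with Hox genes called in these fits; whether its changes differed from those of the other mutants was not tested. Hoxd13 rose to 25, 49 and 38 counts from 11, 15 and 17 (1.80 against 0.676 CPM; log2FC 1.39 ± 0.36, adjusted p = 0.0069), Hoxb9 to 13, 26 and 13 from 0, 2 and 10 (log2FC 2.1 ± 0.75, adjusted p = 0.0352) and Hoxa7 to 10, 13 and 16 from 5, 5 and 7 (log2FC 1.21 ± 0.45, adjusted p = 0.0405). These were 3 of 39 members, beside 2.75% of 15845 tested genes up-regulated. Only 4 members were tested, and Hoxa7 and Hoxb9, which did not pass the filter in the other single mutants, passed it through their Hp1β Δ/Δ counts, so the calls are not a measure of how many Hox genes responded. Of the tested members Hoxc13 was not called (5, 21 and 22 against 8, 16 and 22 counts; log2FC 0.08 ± 0.54, adjusted p = 0.918). Every Hp1β Δ/Δ library lay above every wild-type library for 11 of the 39 members, beside 19.3% of genes with a count, and 7 of the 11 were Hoxb genes. The Hoxb sum was 2.88 ± 0.309 CPM against 0.866 ± 0.304. Hoxa10 had 8, 5 and 19 counts against 1, 2 and 3 and was called only without the filter (log2FC 2.39, adjusted p = 0.020), in a fit that called Hoxa10, Hoxb9 and Hoxd13 up-regulated, beside 2.19% of genes with a count. The Hoxa7 call was lost on leaving out any one of the 6 libraries (log2FC 1.04 to 1.41) and the Hoxb9 call without the second Hp1β Δ/Δ or the first or second wild-type library (1.52 to 1.77). Without the first wild-type library 1 Hox gene was called. The 17 fibroblast markers summed to between 106 and 119 CPM in Hp1β Δ/Δ and between 93.9 and 100 in wild type. Fap was at 0 in both and Lum in wild type. Of 12 markers tested 1, Col1a1, was up-regulated, to 17.9 ± 1.12 from 6.14 ± 0.465 CPM (log2FC 1.53 ± 0.10), and 0 were down-regulated. The median log2FC of the 12 markers was 0.11, against -0.03 for all tested genes. Their part in the Hox result was not tested. In the other lines without HP1β, Hoxd13 had 7, 20 and 9 counts in Hp1α/β Δ/Δ and 9, 10 and 6 in Hp1β/γ Δ/Δ.

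Hoxd1 and Hoxd4 were lower in the single mutants than in the first wild-type set when the filter was left out, a fit in which 2.25% of genes with a count were lower in Hp1α Δ/Δ, 4.23% in Hp1β Δ/Δ and 2.33% in Hp1γ Δ/Δ. Hoxd4 had 2, 0 and 6 counts in Hp1α Δ/Δ, 0, 0 and 1 in Hp1β Δ/Δ and 0, 1 and 1 in Hp1γ Δ/Δ, against 13, 13 and 7 (log2FC -2.0, -4.56 and -3.85; unfiltered adjusted p = 0.0421, 0.000374 and 0.000831). Hoxd1 had 3, 2 and 2, 7, 2 and 1, and 0, 3 and 0 against 19, 8 and 10 (log2FC -2.37, -1.79 and -3.53; unfiltered adjusted p = 0.0105, 0.0481 and 0.000616). The second wild-type set itself had 6 Hoxd4 counts in total against 33 in the first. Between the 2 wild-type sets 0 of 2 tested Hox genes were called, beside 2.55% of all genes higher and 3.12% lower in the second, and 1, Hoxd4, was called without the filter, beside 2.31% of genes with a count (log2FC -2.40, unfiltered adjusted p = 0.0151). DESeq2 called 0, and 1 tested gene, Hoxd13, had an unadjusted p under 0.05 in edgeR's test.

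After loss of SETDB1 10 Hox genes were called up-regulated, 6 of them in the Hoxb cluster. The Hox sum was 19.9 ± 0.236 CPM in Setdb1 Δ/Δ (20.1, 19.9 and 19.6 in the 3 libraries) and 4.21 ± 0.786 in Setdb1 F/F. Hoxb genes made up the largest share, 9.65 ± 0.544 against 0.437 ± 0.0863 CPM. Hoxa genes stood at 4.38 ± 0.451 against 1.78 ± 0.292, Hoxc at 3.25 ± 0.186 against 1.48 ± 0.633 and Hoxd at 2.61 ± 0.302 against 0.524 ± 0.119 CPM. Of the 39 members 10 were up-regulated and 0 down-regulated, beside 18.5% of 16457 tested genes up-regulated. Only 12 were tested. Hoxb5 and Hoxb8, for example, had no count in Setdb1 F/F and passed the filter through Setdb1 Δ/Δ. The calls are therefore not a measure of how many Hox genes responded. Every Setdb1 Δ/Δ library lay above every Setdb1 F/F library for 20 of the 39, beside 28.4% of genes with a count. Of 28 Hox genes with at most 3 counts in Setdb1 F/F, 7 reached 30 counts after deletion, beside 4.26% of 6382 such protein-coding genes. The median log2 ratio over 34 members with a defined fold was 1.98, with 12 set at their bound. In the unfiltered fit the median log2FC was 2.49 over the 39 Hox genes and 0.20 over all genes, with the same limit for genes without control counts. Over all genes of the filtered fit it was 0.01.

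All 10 Hoxb genes were up-regulated in Setdb1 Δ/Δ in the unfiltered fit, in which 14.1% of genes with a count were, and 6 in the filtered one. Hoxb8, a gene of the trunk and of the nervous and blood systems, had 24, 24 and 22 counts against 0 in all 3 controls, at least 20.5-fold higher. Hoxb5 had 17, 19 and 26 against 0, at least 18.2-fold higher. Hoxb4 had 42, 40 and 38 against 0, 2 and 0, 52.7-fold higher (14.3 to 440), and Hoxb3 11, 16 and 28 against 0, 1 and 0, 48.3-fold higher (8.32 to 1942). Hoxb9 had 55, 49 and 36 counts against 3, 0 and 4 (log2FC 4.09 ± 0.47, adjusted p = 4.12e-07) and Hoxb13, which lies apart from the others at the 5′ end and is a hindgut and prostate gene, 18, 11 and 24 against 5, 2 and 1 (log2FC 2.51 ± 0.52, adjusted p = 3.14e-04). Hoxb2, with 13, 17 and 10 counts against 0, was at least 11.7-fold higher, Hoxb6, with 9, 7 and 3, at least 5.56-fold, and Hoxb1, with 4, 8 and 3, at least 4.39-fold; these 3 and Hoxb7, with 10, 13 and 3 against 2, 1 and 3, did not pass the filter. Hoxb7 alone of the cluster had libraries that overlapped with the controls.

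Outside Hoxb, Hoxa7 rose from 3, 5 and 5 to 36, 38 and 31 counts (log2FC 2.81 ± 0.36, adjusted p = 1.57e-06) and Hoxa3 from 1, 1 and 0 to 11, 17 and 17, 19.8-fold higher (5.16 to 168). Hoxd13 rose from 6, 4 and 2 to 20, 23 and 26 (log2FC 2.32 ± 0.40, adjusted p = 4.82e-05), and Hoxd1, the most 3′ Hoxd gene, from 2, 1 and 0 to 21, 10 and 15, 13.5-fold higher (4.33 to 67.7). Hoxc13 had 42, 59 and 43 counts against 23, 34 and 9; its adjusted p of 0.0117 passed but its log2FC of 0.95 ± 0.32 did not. Hoxd10 was called only without the filter, with 6, 3 and 6 counts against 0. Hoxa9, with 0, 0 and 1 counts against 3, 0 and 0, and Hoxa11, with 1, 0 and 6 against 2, 1 and 1, were among the members that stayed near the floor.

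**Figure D3:**
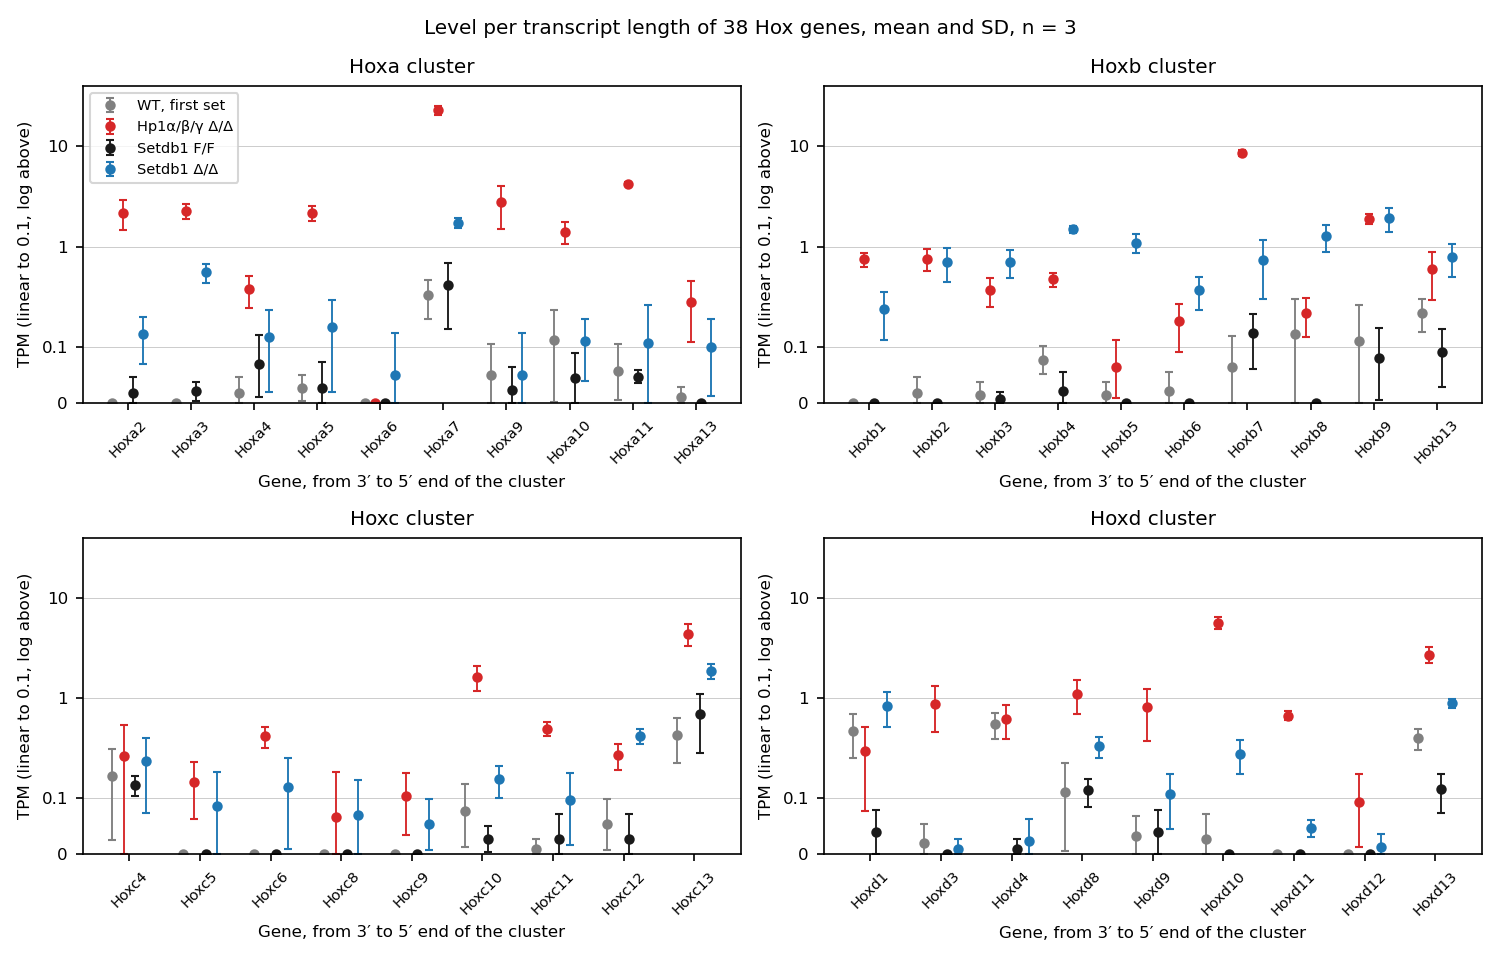
Mean TPM and SD (whiskers, cut at 0) of 38 Hox genes in 3 libraries of the first wild-type set, Hp1α/β/γ Δ/Δ, Setdb1 F/F and Setdb1 Δ/Δ, ordered from the 3′ to the 5′ end of each cluster; the vertical axis is linear up to 0.1 TPM and logarithmic above. In the triple knockout Hoxa7, Hoxb7 and Hoxd10 rise above their neighbours and Hoxa6 stays at 0, whereas in Setdb1 Δ/Δ Hoxb2 to Hoxb13 lie within 0.367 and 1.92 TPM.

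The deletions of HP1 and of SETDB1 do not share control libraries, so their Hox calls were set side by side. Of the 22 members called in the triple knockout, 6 (27.3%) were also among the 10 of Setdb1 Δ/Δ, of which they made 60%: Hoxa3, Hoxa7, Hoxb3, Hoxb4, Hoxb9 and Hoxd13. Over all genes 33.4% of the 4401 up-regulated in the triple knockout were also up-regulated in Setdb1 Δ/Δ, where they made 48.2% of 3048, so a shared call was common. Hoxb5, Hoxb8, Hoxb13 and Hoxd1 were called in Setdb1 Δ/Δ and not in the triple knockout, where Hoxd1 was tested and the others did not pass the filter. Whether the 2 changes differed was tested in 1 model over the 12 libraries, as the log2 change of the triple knockout from wild type minus that of Setdb1 Δ/Δ from Setdb1 F/F; this test was added after the data had been seen. It called 12 of 25 tested Hox genes, 9 with the larger change in the triple knockout (beside 15.4% of 18569 genes) and 3 with the larger in Setdb1 Δ/Δ (beside 16.5%). Members silent in the controls passed the filter through a deletion, so this is not a measure of how many Hox genes differed. With Hp1α/β Δ/Δ in place of wild type 15 of 24 were called. Of these 10 had the larger change in the triple knockout and 5 in Setdb1 Δ/Δ, beside 2948 and 2880 of 18532 genes.

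Several of the 9 were Hoxa genes. The change was larger in the triple knockout by 5.31 ± 1.45 on the log2 scale for Hoxa11 (adjusted p = 0.0028) and by 3.60 ± 0.56 for Hoxa7 (adjusted p = 5.60e-06), and it was also larger for Hoxa2, Hoxa3 and Hoxa9. Outside Hoxa it was larger by 4.66 ± 1.13 for Hoxb7 (adjusted p = 9.87e-04), by 2.04 ± 0.50 for Hoxc13 (adjusted p = 9.94e-04) and by 2.37 ± 0.94 for Hoxd8 (adjusted p = 0.0318). The 3 genes with the larger change after Setdb1 loss were Hoxb4 (difference -3.36 ± 1.01, adjusted p = 0.00554), Hoxb8 (24, 24 and 22 counts in Setdb1 Δ/Δ against 4, 7 and 7 in the triple knockout; adjusted p = 0.00249) and Hoxd1 (difference -4.69 ± 0.97, adjusted p = 1.95e-04). Fitted differences for Hoxa2, Hoxa3 and Hoxb8 rest on a control group without counts and depend on the prior count of the fit, so only their adjusted p-values are read. The call was lost for Hoxa9 without the first Setdb1 F/F library, for Hoxa3 without the first or the second, for Hoxd8 (differences of 1.82 to 2.42) without any one of 7 libraries and for Hoxa2 without any one of 9.

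Levels can be compared between genes only per transcript length. On the TPM scale the highest in the triple knockout were Hoxa7 at 23.1 ± 2.35 TPM, Hoxb7 at 8.56 ± 0.615, Hoxd10 at 5.65 ± 0.721, Hoxc13 at 4.397 ± 1.06 and Hoxa11 at 4.25 ± 0.164. The lowest Hoxa7 library, at 21.1 TPM, was above the highest of Hoxb7, at 9.13, and the lowest of Hoxb7, at 7.91, above the highest of Hoxd10, at 6.39; Hoxc13 overlapped with both of its neighbours in this order. A further 5 Hoxa genes (Hoxa9, Hoxa3, Hoxa5, Hoxa2 and Hoxa10) lay between 2.79 ± 1.27 and 1.40 ± 0.342 TPM. Within the run from Hoxa5 to Hoxa9, Hoxa6 was at 0 TPM while Hoxa5 was at 2.17 ± 0.379 and Hoxa7 at 23.1. Similarly Hoxb6 was at 0.180 and Hoxb8 at 0.217 TPM on either side of Hoxb7, at 8.56. The TPM values of the files use all annotated transcripts of a gene, and reads at these genes were not analysed here, so the part of each locus that was transcribed is not known.

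In Setdb1 Δ/Δ the order per transcript length was flatter. Hoxb9 at 1.92 ± 0.514 TPM, Hoxc13 at 1.87 ± 0.336, Hoxa7 at 1.73 ± 0.191, Hoxb4 at 1.497 ± 0.119, Hoxb8 at 1.26 ± 0.378 and Hoxb5 at 1.09 ± 0.235 were among the highest, and each overlapped with the next of these. Hoxb9 reached similar levels in both deletions, 1.90 ± 0.223 and 1.92 ± 0.514 TPM. In Hp1β Δ/Δ the highest was Hoxd13 at 1.01 TPM.

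The Hoxa, Hoxb and Hoxc clusters lie on the chromosome of a deleted HP1 gene: Cbx3 is 672 kb from Hoxa, Cbx1 421 kb from Hoxb and Cbx5 155 kb from Hoxc. The sums of each cluster in the mutants of the linked gene are given without a test. In Hp1γ Δ/Δ the Hoxa sum was 1.12 ± 0.118 CPM against 0.910 ± 0.116 in the first wild-type set, and it was 1.18 ± 0.223 in Hp1α/γ Δ/Δ and 0.304 ± 0.114 in Hp1β/γ Δ/Δ against 0.791 ± 0.0144 in the second. The Hoxc sum was 0.830 ± 0.166 in Hp1α Δ/Δ and 0.946 ± 0.619 in Hp1α/β Δ/Δ against 1.09 ± 0.452, and 0.767 ± 0.0662 in Hp1α/γ Δ/Δ against 0.804 ± 0.112. In Hp1β Δ/Δ the Hoxb sum was 2.88 CPM, in Hp1α/β Δ/Δ 1.73 ± 0.830, and in Hp1β/γ Δ/Δ, against the second wild-type set at 0.817 ± 0.156, 1.18 ± 0.0948 CPM.

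Of 60 genes within 250 kb of a cluster's ends, 20 were tested in Hp1α/β/γ Δ/Δ and 5 were up-regulated, beside 25.1% of all tested genes. A pair of them are non-coding, Halr1 beside Hoxa (log2FC 2.56 ± 0.59, adjusted p = 0.000603) and Gm49477 beside Hoxc, which had no count in wild type (adjusted p = 3.86e-07). The other 3, of 16 protein-coding genes tested, all lie beside Hoxb: Skap1, an adaptor of T cell signalling, at 8.41 ± 1.13 CPM against 0.156 ± 0.0689 (log2FC 5.73 ± 0.29, adjusted p = 8.10e-13), Calcoco2, an autophagy receptor (log2FC 1.71 ± 0.05), and Ttll6, a tubulin-modifying enzyme (log2FC 1.71 ± 0.09). None was down-regulated, beside 17.1% of all tested genes, and the median log2FC of the protein-coding neighbours was -0.38, against 0.04 for all tested genes. These neighbours include Cbx5 beside Hoxc, itself one of the deleted HP1 genes (log2FC -0.81 ± 0.02, not called). Against Hp1α/β Δ/Δ 2 of 20 tested flanking genes were up-regulated, Skap1 and Gm49477, beside 25.4% of all tested genes. Calcoco2 (log2FC 0.65 ± 0.04), Ttll6 (0.93 ± 0.08) and Halr1 (0.84 ± 0.45) were not called in that comparison. After Setdb1 loss 18 of the 60 were tested, 0 rose, beside 18.5% of all tested genes, and 1, Atp5g2 beside Hoxc, fell, beside 11.4% (log2FC -1.53 ± 0.11, adjusted p = 1.18e-09). Within the clusters 46 further genes are annotated, 3 of them protein-coding, and 3 were tested in the triple knockout, each up-regulated: Hoxa11os, Gm53, which lies between Hoxb13 and Hoxb9, and Haglr. Hoxa11os and Haglr passed the count filter only in comparisons that include the triple knockout. These calls are therefore not a measure of how many of the 46 responded. Gm53 rose in both deletions (log2FC 1.81 ± 0.20 and 2.18 ± 0.13). In Hp1β Δ/Δ 2 of 18 tested flanking genes rose, Calcoco2 (log2FC 1.13 ± 0.06) and Evx1, beside 2.75% of all tested genes. Evx1 was not tested in the other single mutants and passed the filter through its Hp1β Δ/Δ counts.

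Of the 17 non-coding Hox cluster genes of a list, 15 were in the tables. Hoxa11os, transcribed from the opposite strand of Hoxa11, had 116 counts over the triple-knockout libraries and 0 in the first wild-type set, Setdb1 F/F and Setdb1 Δ/Δ. Whether the counting used strand is not given in the sources used here, so reads of Hoxa11 and Hoxa11os cannot be told apart with certainty. Haglr, at the Hoxd1 end of Hoxd, rose to 0.651 ± 0.163 from 0.234 ± 0.0776 CPM (log2FC 1.47 ± 0.50, adjusted p = 0.0114). Hotair, an antisense RNA of the Hoxc cluster, had 38 counts against 0 and did not pass the filter, Hoxaas3 had 11 and Hotairm1 8. None of the list was tested in Setdb1 Δ/Δ.

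The calls among partners and regulators of Hox proteins and among the marker genes were read beside those of all tested genes, of which 25.1% rose and 17.1% fell in the triple knockout and 18.5% rose and 11.4% fell in Setdb1 Δ/Δ. Of 9 TALE homeodomain genes, whose proteins bind DNA together with Hox proteins, Meis1, Meis2 and Pknox2 rose in the triple knockout and Pknox1 was among those that fell, with a median log2FC of -0.23. Meis2 went from 0.266 ± 0.186 to 4.64 ± 0.562 CPM (log2FC 4.13 ± 0.35, adjusted p = 2.26e-09) and Meis1 from 1.46 ± 0.224 to 3.61 ± 0.112 (log2FC 1.34 ± 0.23, adjusted p = 3.62e-05). In Setdb1 Δ/Δ Meis1 (log2FC 2.42 ± 0.21) and Meis2 (1.19 ± 0.21) rose and Pknox2 fell (-1.07 ± 0.23).

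Of 8 ParaHox and Evx genes, the relatives of the clusters, 5 were tested in the triple knockout. Cdx1, Cdx2, Gsx2 and Pdx1 rose and Cdx4 fell. Gsx2, a forebrain gene, had 534 counts against 2 in wild type, and Cdx2, an activator of posterior Hox genes, 58 against 11 (log2FC 2.25 ± 0.52, adjusted p = 5.74e-04). Against Hp1α/β Δ/Δ, 2 of 5 tested rose, Gsx2 and Pdx1, and 1, Cdx4, fell, beside 25.4% and 16% of all tested genes. Cdx2 (log2FC -0.08 ± 0.36, adjusted p = 0.836) and Cdx1 (0.54 ± 0.37, adjusted p = 0.191) were not called in that comparison. The part of Cdx2 in the Hox levels was not tested. In Setdb1 Δ/Δ Cdx4, Gsx1 and Gsx2 rose among 4 tested. In Hp1β Δ/Δ Cdx2 (log2FC 3.06 ± 0.49, adjusted p = 3.25e-04), Gsx1 and Evx1 rose among 4, beside 2.75% of all tested genes. Only 2 of the 8 were tested in Hp1α Δ/Δ and in Hp1γ Δ/Δ, so some passed the filter through their Hp1β Δ/Δ counts. Evx1 lies beside the Hoxa cluster.

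Retinoic acid is the classical inducer of 3′ Hox genes, and 18 genes of its pathway were examined. In the triple knockout 4 of 16 tested rose and 4 fell, near the shares over all genes, with a median log2FC of -0.38, and in Setdb1 Δ/Δ 6 of 14 rose and 1 fell, with a median of 0.72. Aldh1a2, which makes retinoic acid in the embryo, rose in both, to 9.75 ± 0.499 from 1.84 ± 0.632 CPM and to 7.51 ± 0.374 from 1.63 ± 0.333 (log2FC 2.44 ± 0.20 and 2.23 ± 0.17). So did the receptor gene Rarb (log2FC 3.31 ± 0.54 and 2.87 ± 0.34), itself a target of retinoic acid, as well as Rdh10 and Cyp26b1. Crabp2, a carrier of retinoic acid, fell in the triple knockout (log2FC -1.06 ± 0.16) and rose in Setdb1 Δ/Δ (2.17 ± 0.26). Among 11 posterior axis signals, Gdf11 and Nkx1-2 rose and Fgf8 fell of 9 tested in the triple knockout, and Wnt8a rose and Wnt3a and Wnt5b fell of 6 in Setdb1 Δ/Δ.

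Of 19 Polycomb and Trithorax genes, all tested, 5 rose and 5 fell in the triple knockout, beside 25.1% and 17.1% of all genes, with a median log2FC of -0.32. Among those that rose were the Polycomb subunits Bmi1 and Cbx8 and the H3K27 demethylases Kdm6a and Kdm6b. Bmi1 went from 2.89 ± 0.582 to 22.8 ± 2.48 CPM (log2FC 3.01 ± 0.14, adjusted p = 1.12e-13) and Kdm6a from 65.2 ± 4.75 to 163 ± 7.91 (log2FC 1.36 ± 0.05). Those that fell were Cbx7, the main Polycomb reader of ESCs, from 287 ± 9.46 to 109 ± 0.838 CPM, Jarid2, from 437 ± 0.862 to 158 ± 4.29, and Pcgf2, Ring1 and Men1. Against Hp1α/β Δ/Δ 4 of the 19 rose and 6 fell, beside 25.4% and 16% of all tested genes. Bmi1, Cbx8 and Kdm6a were up-regulated in that comparison too, whereas Kdm6b was not called (log2FC -0.34 ± 0.05). After Setdb1 loss 3 rose and 1 fell, beside 18.5% and 11.4%. Those that rose again included Bmi1 (log2FC 1.97 ± 0.08) and Cbx8 (2.63 ± 0.30), and Kdm6b fell (-1.02 ± 0.04). The Hp1α Δ/Δ and Hp1β Δ/Δ lines had none called in this list.

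Feeder fibroblasts express Hox genes. The study's methods state that feeders were depleted by letting them settle on gelatin before the ESCs were used, and their markers were measured in every library. The 17 markers summed to between 76.5 and 79.4 CPM in Hp1α/β/γ Δ/Δ, below the 93.9 to 100 CPM of the first wild-type set. They summed to between 30.1 and 32.6 CPM in Setdb1 Δ/Δ and between 27.7 and 29.8 in Setdb1 F/F. Fap was at 0 in all of these groups, Lum also in the first wild-type set, Prrx1 in Setdb1 Δ/Δ, and Postn, Prrx1, Twist2 and Lum in Setdb1 F/F. In the triple knockout 2 of 12 tested markers rose (Col3a1, Snai2) and 4 fell (Col1a1, Col6a1, Dcn, Thy1), and Col1a1 was at 1.95 ± 0.406 CPM against 6.14 ± 0.465. In Setdb1 Δ/Δ 2 of 8 rose (Col6a1, Snai2) and 2 fell (Col1a1, Thy1). The part of feeder RNA in the Hox levels was not tested.

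**Figure D4:**
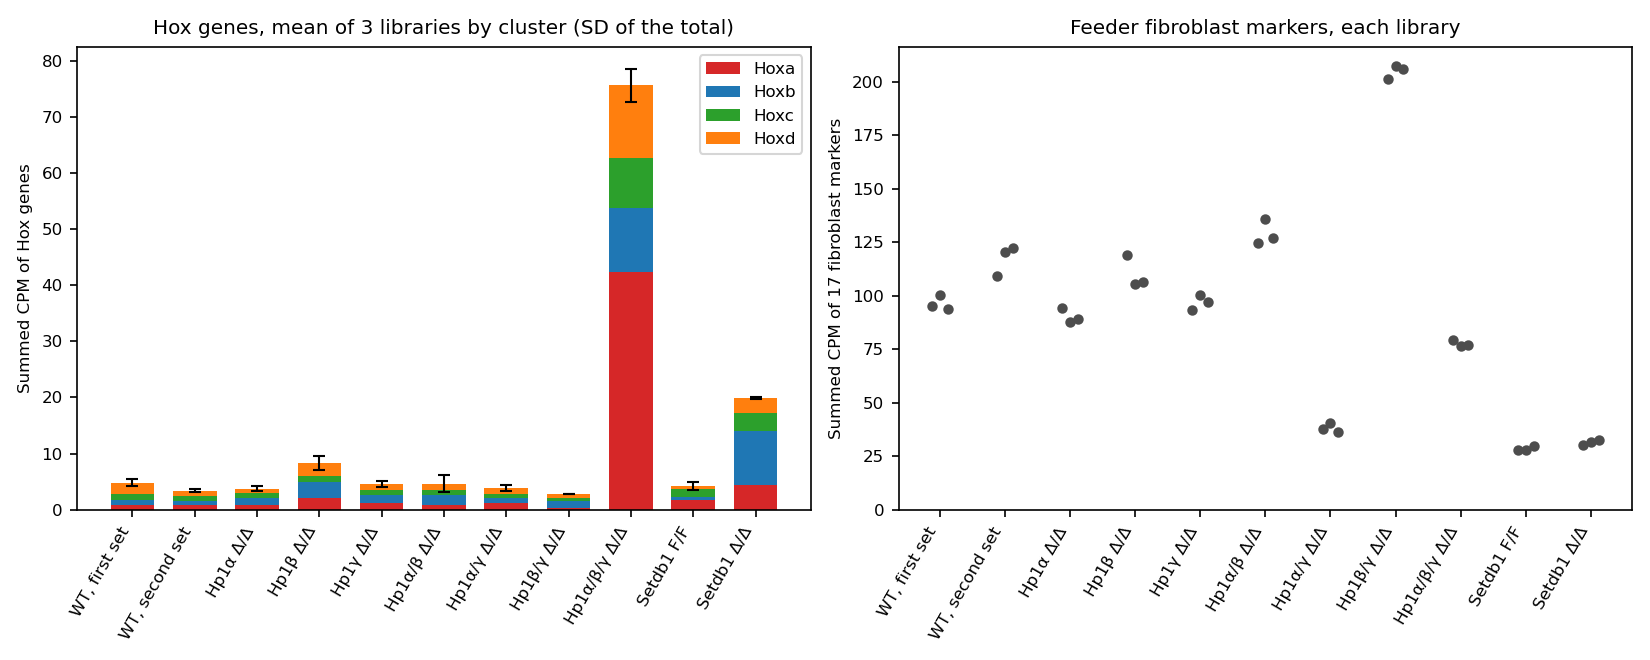
Left, mean summed CPM of the Hox genes by cluster (stacked bars; whisker, SD of the total over 3 libraries); right, summed CPM of 17 fibroblast markers in each library. The Hox total is 75.6 CPM in Hp1α/β/γ Δ/Δ and 19.9 in Setdb1 Δ/Δ and at most 8.30 elsewhere, and the fibroblast sums of these 2 groups lie between 76.5 and 79.4 and between 30.1 and 32.6 CPM.

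Markers of ESCs and of early lineages also changed. Of 9 pluripotency genes 6 fell in the triple knockout and 1 in Setdb1 Δ/Δ, and none rose; their sum was 1475 ± 21.7 against 3671 ± 15.8 CPM and 4616 ± 31.0 against 6550 ± 19.5 CPM. Of 7 endoderm genes 4 of 6 tested rose and 1 fell in the triple knockout, and 1 of 7 rose and 4 fell in Setdb1 Δ/Δ. The summed level of the 7 was lower in both, at 65.7 ± 2.42 against 166.5 ± 3.80 CPM and at 35.7 ± 1.76 against 195.7 ± 3.54 CPM. Of 7 mesoderm genes 2 rose and 2 fell among 6, and 1 and 1 among 3, and of 6 neural genes 2 rose and 1 fell among 5, and 2 and 1 among 4. The part of these cell states in the Hox levels was not tested.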

How the data were processed

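The deposited tables hold estimated counts and TPM per gene for each library, which the authors made from their reads before they were deposited; the submitters' processing notes name TopHat2 2.1.1, RSEM, edgeR and GRCm38.p5, and the study's methods name DESeq2. Strand settings are not given in the sources used here. Columns with the authors' own fold changes and p-values were not used. Libraries held 17330936 to 25743149 counts, which sets the precision for low genes.

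Counts were rounded and tested with edgeR 4.0.16 (R 4.3.3; quasi-likelihood test, TMM factors, filterByExpr with a minimum count of 10, Benjamini-Hochberg adjustment) across all genes, each comparison on its own 6 libraries. Calls needed an adjusted p under 0.05 and an absolute log2FC over 1. CPM used TMM factors over all 33 libraries. Floors of 3 counts and exact 95% intervals cover counting error only. Alternatives were DESeq2 1.42.0, RLE factors, no filter or a stricter one, all libraries in one fit, the other wild-type set, a replicate block and leaving out each library. The replicate numbers did not pair the samples: in none of the 10 comparisons did all 3 same-numbered pairs deviate together with a correlation over 0.1. The code was tested on simulated data.

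Every Hox gene could be named, with library values for those called or with a group mean of at least 1 CPM; other genes came from lists of TALE, ParaHox and Evx, retinoid, posterior axis, Polycomb and Trithorax, non-coding and neighbouring genes and of cell type markers. A few of these genes are counted in the totals and not reported by name here. The members and lists were chosen with earlier results of these data known.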

Additional observations from a re-analysis of the deposited data

Results flagged for a closer look

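For Hoxa2, Hoxa3, Hoxa7, Hoxa9, Hoxa11, Hoxb4, Hoxb7, Hoxb8, Hoxc13, Hoxd1 and Hoxd8 the change after loss of the 3 HP1 proteins differed from the change after loss of SETDB1, by an interaction term over 12 libraries (edgeR's quasi-likelihood test, adjusted p under 0.05). The difference of the log2 changes, triple knockout minus Setdb1 knockout, was 3.60 for Hoxa7, 6.4 for Hoxa9 and 5.31 for Hoxa11. It was 4.66 for Hoxb7, 2.04 for Hoxc13 and 2.37 for Hoxd8, and it was -3.36 for Hoxb4 and -4.69 for Hoxd1. The size for Hoxa9 is uncertain, since it rests on 0, 0 and 1 counts in Setdb1 Δ/Δ and 3, 0 and 0 in Setdb1 F/F. Its call was lost without the first Setdb1 F/F library. Hoxa2, Hoxa3 and Hoxb8 had a control group without counts, so no size is given for them; their adjusted p-values were 0.0481, 0.021 and 0.00249, with the larger change in the triple knockout for Hoxa2 and Hoxa3 and after Setdb1 loss for Hoxb8.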

How the results depend on the processing

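With no filter on low counts, 2 Hox genes were called in Hp1α Δ/Δ, 5 in Hp1β Δ/Δ, 2 in Hp1γ Δ/Δ and 1 between the wild-type sets, against 0, 3, 0 and 0; over all genes this fit called 3.4%, 6.42%, 3.95% and 4.27%. DESeq2 called 1 in Hp1α Δ/Δ and 2 in Hp1γ Δ/Δ, beside 2.89% and 3.46% of all genes. With all 33 libraries in one fit the counts were 2 in Hp1α Δ/Δ, 8 in Hp1β Δ/Δ, 3 in Hp1γ Δ/Δ, 2 in Hp1α/β Δ/Δ, 3 in Hp1α/γ Δ/Δ and 2 in Hp1β/γ Δ/Δ, of 27 members tested, beside 4.38%, 9.04%, 5.13%, 7.49%, 22.4% and 10.6% of all genes. With the second wild-type set as control, 1 was called in Hp1γ Δ/Δ, beside 10.6% of all genes, and log2FC turned positive for Hoxc13 in Hp1α Δ/Δ (0.26), Hp1γ Δ/Δ (0.30) and Hp1α/β Δ/Δ (0.39) and for Hoxd13 in Hp1α Δ/Δ (0.61). Requiring 10 counts in every library left 1 Hox gene called in Hp1β Δ/Δ, 1 in the triple knockout and 0 in Setdb1 Δ/Δ, where few members could be tested; no member could be tested in some other comparisons, which have no value. The cause was not tested otherwise. Without scaling factors the triple knockout's sums were 51.5 CPM for Hoxa, 13.8 for Hoxb, 10.9 for Hoxc and 15.7 for Hoxd, those of Setdb1 Δ/Δ 4.95, 10.9, 3.67 and 2.95, and Hoxc in Hp1α/γ Δ/Δ 0.662. With RLE factors Hoxb in the triple knockout was 12.2 and Hoxa in the second wild-type set 0.777 CPM. Leaving out 1 library gave 0 to 2 calls in Hp1α Δ/Δ, 1 to 4 in Hp1β Δ/Δ, 0 to 2 in Hp1γ Δ/Δ and in Hp1α/β Δ/Δ, 23 in the triple knockout, 20 to 22 against Hp1α/β Δ/Δ, 11 to 13 in Setdb1 Δ/Δ, 0 to 1 between the wild-type sets and 9 to 12 for the difference of the 2 deletions. The log2FC then ran, across 0, from -0.52 to 0.18 for Hoxc13 in Hp1α Δ/Δ, -0.24 to 0.47 in Hp1β Δ/Δ, -0.48 to 0.21 in Hp1γ Δ/Δ and -0.87 to 0.31 in Hp1α/β Δ/Δ, from -0.07 to 0.33 for Hoxd13 in Hp1γ Δ/Δ and from -0.47 to 0.00 for Hoxd4 in the triple knockout, none of them called. With the replicate number as a block the counts were 22, 20, 11, 2 and 10 for the triple knockout, the triple against the double mutant, Setdb1 Δ/Δ, Hp1β Δ/Δ and the difference; the samples share only a number. Depth limits every gene under about 10 counts.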
